A study of Homo sapiens with 4 samples.

Results

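Y RNAs are short noncoding RNAs made by RNA polymerase III that fold back so that their 5′ and 3′ ends pair, bind the Ro60 and La proteins, and take part in the start of DNA replication and in RNA quality control. Small RNA libraries pick up mostly fragments cut from the ends of Y RNAs, and the human genome carries many retrotransposed copies of the functional genes. Copies were chosen by name and by count: features whose GENCODE symbol was exactly Y_RNA, or RNY with a digit and P, with at least 40 raw counts summed over the 4 libraries. There were 227 such copies among 775 listed Y RNA copies and 7062 small RNA features in all. By name, 206 of the copies carried the generic symbol Y_RNA, 16 belonged to the RNY4P series, 3 to RNY3P and 2 to RNY1P. Of the other listed copies, 219 had 0 counts in every library and 329 had between 1 and 39. Just outside the limit lay 3 copies with 39 counts, and just inside it 3 copies with 41. Because the counts chose the copies, the levels below are descriptions.

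The libraries came from HEK293T cells, a human embryonic kidney line, transfected with an RPB1 subunit of RNA polymerase II (Pol II) whose C-terminal domain had 52 heptad repeats. The 52X WT group had wild-type repeats, and in the 52X T4A group alanine took the place of threonine 4 of the heptad. Both groups received 1.5 µg of plasmid per well and 72 h of 2.5 µg/ml α-amanitin, a toxin that depletes the endogenous polymerase but spares the resistant transfected subunit. Each group had 2 libraries of 50 bp single-end reads from total RNA, which the series describes as biological replicates, with 16180790 to 27370127 assigned counts.

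The labels could be checked little from small RNAs. MIR1-1, a muscle miRNA, was counted at 738 and 1259 in 52X T4A and 220 and 309 in 52X WT. In the same order, MIR206 had 30, 6, 1 and 1 counts and MIR133B had 2, 1, 0 and 0. MIR150, of lymphocytes, had 16, 42, 3 and 9, and MIR122, of liver, had at most 1 count in a library. MIR1-1, MIR206, MIR133B and MIR150 thus all had more counts in both 52X T4A libraries than in either 52X WT library. The part of other cells in the results below was not tested. The library 52X WT replicate 1 stood apart in Y RNA content, and results that rest on it are given with and without it.

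The first 40 bases of RNY4 are set beside those of 10 of the 11 most abundant copies (37 bases where a copy has a gap of 3), because the tiers below follow their differences, with capitals for bases that differ from RNY4. All are printed 5′ to 3′ from the GENCODE transcripts, version 44 on GRCh37, and were matched by Ensembl identifier.
RNY4: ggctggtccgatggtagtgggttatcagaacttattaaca
RNY4P10: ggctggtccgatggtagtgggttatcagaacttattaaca
Y_RNA ENSG00000201778.1: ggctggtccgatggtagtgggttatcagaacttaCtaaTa
RNY4P7: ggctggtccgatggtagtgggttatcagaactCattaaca
RNY4P27: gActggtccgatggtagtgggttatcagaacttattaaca
RNY4P20: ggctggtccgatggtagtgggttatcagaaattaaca
RNY4P6: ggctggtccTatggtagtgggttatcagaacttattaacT
Y_RNA ENSG00000199200.2: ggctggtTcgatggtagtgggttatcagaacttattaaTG
Y_RNA ENSG00000201938.1: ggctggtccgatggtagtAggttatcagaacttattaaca
Y_RNA ENSG00000201405.1: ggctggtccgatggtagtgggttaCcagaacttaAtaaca
RNY4P17: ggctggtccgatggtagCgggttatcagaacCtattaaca
The remaining copy of the 11, Y_RNA ENSG00000252759.1, differed from RNY4 by G10A, T35A, A38T and C39T and by 1 inserted base. Positions are counted from 1 at the first base of RNY4.

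The copies fell into steep tiers. At least 100000 counts were summed at 10 copies, which held 96.7% of all counts on the 227, and a single copy, RNY4P17, stood between 10000 and 100000 with 69503. Below them, 61 copies had at least 1000 but under 10000 counts, 98 had at least 100 but under 1000, and 57 had at least 40 but under 100. The 61 held 2.16% of the counts on copies, the 98 held 0.419% and the 57 held 0.0366%. The 11 most abundant copies were all closest to RNY4, although RNY4 was the closest functional gene of 46 copies, against 88 for RNY1 and 93 for RNY3. Closeness was judged by the score of a global alignment. The median identity was 87.5% for the RNY4-related copies, 86.7% for the RNY1-related and 89.4% for the RNY3-related, and all 21 numbered copies were closest to the gene of their own series. Median summed counts were 3400, 685.5 and 184 for the copies of RNY4, RNY1 and RNY3.

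**Figure D1:**
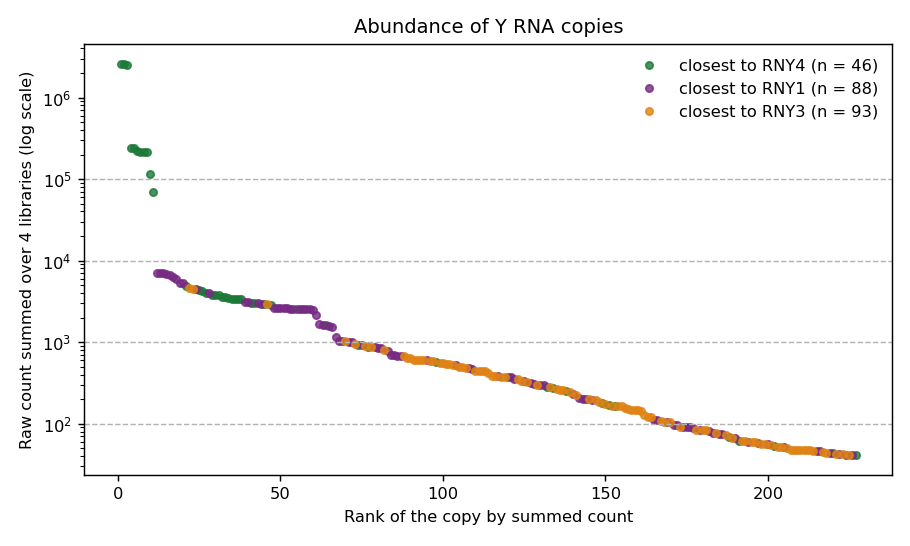
Raw counts summed over the 4 libraries (log scale) against the rank of each of the 227 copies, coloured by the closest functional Y RNA gene; dashed lines mark the limits between tiers. The 11 highest copies are all RNY4-related and stand above 10000, and a gap separates them from the next copy, at 7034.

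The 3 highest copies had counts near those of RNY4. RNY4 itself, at its own locus, had 550586 and 659912 counts in 52X T4A and 808581 and 593993 in 52X WT. RNY4P10 (GRCh38 chr6:33199601-33199696, plus strand, in an intron of RXRB on the opposite strand) had 550107, 658321, 807098 and 593200 in the same order. These values were 99.8% to 99.9% of those of RNY4 in every library. Y_RNA ENSG00000201778.1 (chr3:157153548-157153640, plus strand, over an exon of CCNL1 on the opposite strand) had 549160, 657502, 804614 and 592201, or 99.5% to 99.7% of RNY4. RNY4P7 (chr2:127798903-127798998, minus strand, in an intron of WDR33 on the same strand) had 532437, 638860, 765662 and 569554, or 94.7% to 96.8%. From its first base these copies match RNY4 without a difference through base 42, 34 and 32, in that order, the first of them beyond the printed 40 bases, so the order of the counts followed the length of the match. The counts of RNY4P10 and Y_RNA ENSG00000201778.1 could not be told from those of RNY4 by the limit used below, while those of RNY4P7 were lower by more than that limit allows. How much of any of these counts comes from the copies themselves was not tested.

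The next tier held copies that depart from RNY4 within its first 31 bases. RNY4P27, which has G2A, totalled 241768 and held 9.12% to 9.37% of the RNY4 count in each library. RNY4P20, whose match stops after base 30, totalled 238707. RNY4P6, with G10T, had 217762, and Y_RNA ENSG00000199200.2, with C8T, had 216877. Y_RNA ENSG00000201938.1, with G19A, had 213938, and Y_RNA ENSG00000201405.1, with T25C, had 212820. The first difference lay between base 2 and base 25, or after base 30 in RNY4P20, while these totals stayed within 212820 to 241768. Y_RNA ENSG00000252759.1, with G10A, had 113874 and held 4.32% to 4.41% of RNY4. RNY4P17, with T18C and T32C, held 2.43% to 3.01%.

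Over the 46 RNY4-related copies the summed count was lower with more mismatches to RNY4 in the first 30 bases. The median total was 2554995 for the 4 copies with 0 mismatches, 212820 for 9 copies with 1, 3530.5 for 14 with 2, 2081.5 for 10 with 3 and 373 for 9 with 4 or more. Spearman's rho was −0.69 across these copies, which share libraries and descent and may share reads, so it is a description. The same measure gave −0.08 over the 88 RNY1-related copies and −0.22 over the 93 RNY3-related copies. Their best matches still stood high. The 11 RNY1-related copies with 1 mismatch had a median of 5248, against 111 for 23 with 2, 200.5 for 10 with 3 and 691 for 44 with 4 or more. The 3 RNY3-related copies with 0 mismatches totalled 2961 to 4547, and no other RNY3-related copy passed 1024.

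Among the RNY4-related copies that hold a shorter stretch, counts fell into separate ranges. Bases 14 to 31 of RNY4, printed here because 21 copies hold them without a difference, are as follows.
RNY4 bases 14 to 31: gtagtgggttatcagaac
Of 775 listed copies, 21 hold this stretch and all 21 passed the count limit. The 3 with 0 mismatches in bases 1 to 13 before it totalled 2506513 to 2608726, the 4 with 1 mismatch totalled 113874 to 241768, and the 14 with 2 or more totalled 3361 to 4882. None of the 21 lay between these ranges, but the 25 RNY4-related copies without the stretch totalled 41 to 238707. The groups were drawn after the values had been seen.

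The libraries ranked differently in these groups. In the 7 copies with 0 or 1 mismatch before the stretch, 52X WT replicate 1 was the highest of the 4 libraries, and its CPM (the count scaled to a common library size) were 1.73 to 1.77 times those of 52X WT replicate 2. In the 14 copies with 2 or more mismatches it was never the highest and was the lowest in 13, at 0.425 to 0.870 times replicate 2. The exception was Y_RNA ENSG00000200121.2, where 52X WT replicate 1 had 60.2 CPM and the 52X T4A libraries 56.4 and 57.2. Both rankings also occurred without the stretch: in those 25 copies 52X WT replicate 1 was the highest in 18 and the lowest in 5. The summed CPM of the 14 copies was 627 and 673 in 52X T4A and 483 and 793 in 52X WT, so the groups overlapped and the 2 wild-type libraries stood on either side of the T4A libraries.

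**Figure D2:**
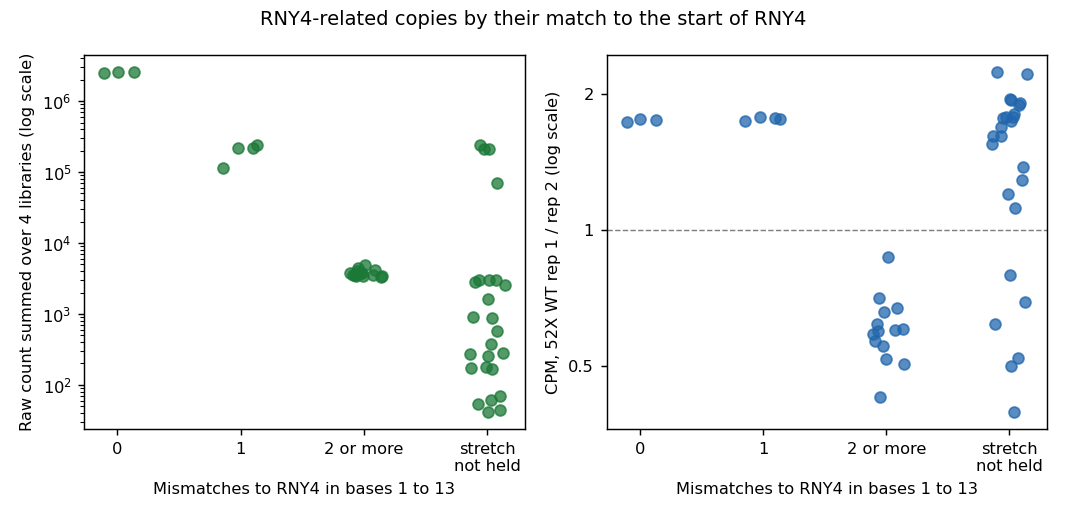
The 46 RNY4-related copies by their mismatches to bases 1 to 13 of RNY4, for copies that hold bases 14 to 31 exactly, and in the last column copies that do not; the left panel gives the summed raw count (log scale) and the right panel the CPM of 52X WT replicate 1 over replicate 2 (log scale, dashed line at 1). In copies that hold the stretch, counts step from at least 2506513 to between 3361 and 4882. Their ratio of the wild-type replicates passes from at least 1.73 to at most 0.870. The 25 copies without it range from 41 to 238707 in count and from 0.394 to 2.24 in ratio.

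Copies whose counts could not be told apart were gathered into sets. Of 173 Y RNA genes and copies with at least 100 counts, 156 fell into 38 sets in which every pair had counts within 2%, or within 3 times the square root of their sum, in every library. Both largest sets had 12 genes. As a measure of agreement with counting noise, the squared difference of paired counts over their sum was averaged over pairs and libraries. It was 0.823 and 1.05 in the largest sets and 2.39 in the set that holds RNY4. Whether the genes of a set share reads was not tested. With the 2% limit alone, chosen after the data had been seen, 5 sets of 11 genes were left, so most sets rest on the allowance for counting noise. That allowance is wide for small counts, and some sets at low counts had few bases in common. A set of 8 genes with 165 to 224 counts shared 6 bases. Some sets of high counts shared long runs: RNY4 with RNY4P10 and Y_RNA ENSG00000201778.1 through 34 bases from the start of RNY4, RNY4P27 with RNY4P20 through bases 3 to 30, and RNY4P6 with Y_RNA ENSG00000199200.2 through bases 11 to 38. Others shared short runs. Y_RNA ENSG00000201938.1 and Y_RNA ENSG00000201405.1 had 18 bases in common, and a set of 5 copies with 6721 to 7034 counts had 13. RNY4P29 and RNY4P30, at separate loci of chromosome 13, both totalled 3039 and shared 60 bases.

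The RNY1-related copies totalled 41 to 7034 counts, and 17 of the 88 shared a 3′ end. A stretch of 28 bases, RNY1 bases 84 to 111, is held by 17 of the 775 listed copies, and all 17 were among the 227. It is shown in capitals in RNY1 and in the 4 most abundant of the 17, from 6 bases before it to the end of each transcript, because these copies gave the most even difference between the groups.
RNY1: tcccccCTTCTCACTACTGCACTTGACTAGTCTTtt
Y_RNA ENSG00000212448.1: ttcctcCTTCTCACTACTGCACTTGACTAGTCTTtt
Y_RNA ENSG00000199285.1: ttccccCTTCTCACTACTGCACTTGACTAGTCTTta
Y_RNA ENSG00000252317.1: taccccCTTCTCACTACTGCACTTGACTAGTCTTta
Y_RNA ENSG00000199424.1: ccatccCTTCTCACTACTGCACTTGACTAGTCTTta
The 17 copies lay on 8 chromosomes and totalled 2142 to 3095 counts each. The stretch was found as the longest run that 17 copies with a DESeq2 call (below) have in common, so that all 17 hold it follows from its choice. An 18th holder among the 775 with the same counts would have been called with them, so its absence is no separate result. Among the 53 copies whose longest exact match was to the 3′ side of RNY1 (its middle past the midpoint of the gene), the median total was 2588 for the 17 copies with 0 mismatches to the stretch, 482 for 13 with 1, 288.5 for 12 with 2 and 220 for 4 with 3, while the 7 with 4 or more had a median of 330 and reached 7034. The copy with 7034 counts has 10 mismatches to the stretch, and its counts formed a set with those of copies matching the 5′ side of RNY1. The 4 printed copies formed a set with 30 common bases, and another 12 of the 17 formed a set with 29.

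The comparison of 52X T4A with 52X WT asks how these RNAs differ when the fourth residue of the repeats cannot be phosphorylated. Bulk libraries cannot tell less RNA per cell from fewer cells that hold it. All features were fitted together in edgeR (quasi-likelihood F test), and a feature was called at a false discovery rate (FDR) below 0.05 and a fold change above 1.5. Of the 227 copies, 222 passed the filter on low counts. None was called, against 2 of 1480 features tested, or 0.135%, and the lowest FDR among the copies was 0.200. The functional genes were not called either: the log2 fold change of 52X T4A over 52X WT was −0.64 for RNY4 (SE 0.31, edgeR FDR 0.467), −0.75 for RNY1 (SE 0.32, edgeR FDR 0.460) and −0.11 for RNY3 (SE 0.31, edgeR FDR 0.934). With 1 library left out, RNY4 lay between −1.07 and −0.29, RNY1 between −1.09 and −0.41 and RNY3 between −0.39 and 0.14. Without 52X WT replicate 1 they were at −0.29, −0.41 and 0.14. RNY4 would be called without 52X T4A replicate 1 (edgeR FDR 0.000132) and RNY1 without 52X WT replicate 2 (edgeR FDR 0.00661). RNY5 was not analysed here.

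By unadjusted edgeR p below 0.05, 37 copies were lower in 52X T4A and 2 higher. With 1 library left out, the number lower was larger without 52X WT replicate 2, where more of all features passed as well, and smaller without each of the others. The shares over all features were 6.28% lower and 3.99% higher, against 16.7% and 0.901% of the copies. The CPM of the groups did not overlap for 68 copies lower in 52X T4A and 19 higher, or 30.6% and 8.56%, where all features gave 21.2% and 18.9%. The median log2 fold change of the copies was −0.32 (−0.52 without 52X WT replicate 2) against −0.05 for all features, and 155 of 222 lay below 0. With library sizes alone as the scaling 120 lay below 0, where the median of all features was 0.14. Copies whose counts could not be told apart were counted separately here, so these numbers are not of independent genes.

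The other listed short RNAs made by polymerase III all had log2 fold changes below 0, from −0.57 to −0.05. VTRNA1-2, a vault RNA, had 312 and 302 CPM in 52X T4A and 415 and 497 in 52X WT, and its log2 fold change of −0.57 (SE 0.23) had an edgeR FDR of 0.427. VTRNA1-1 had 29.7 and 31.99 against 55.3 and 34.3 CPM, at −0.54. Both VTRNA1-1 and VTRNA1-2 were lower in 52X T4A without overlap between the groups. VTRNA2-1 had 1983 and 1588 against 1951 and 1912, and RN7SK, which holds the elongation factor P-TEFb in an inactive complex, had 9.35 and 8.96 against 9.25 and 9.67. The groups overlapped for VTRNA2-1, VTRNA1-3 and RN7SK, and none of these genes was called.

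The top tier differed more between replicates than between groups. RNY4P10 had 34756 and 20850 CPM in 52X T4A and 55310 and 31511 in 52X WT, a log2 fold change of −0.64 (SE 0.31, edgeR FDR 0.467). The wild-type replicate 2 thus lay below T4A replicate 1, and the groups overlapped. The other 9 copies of the tier overlapped in the same way, with log2 fold changes of −0.69 to −0.62. Without 52X WT replicate 1, RNY4 was at −0.29 (SE 0.23). All copies together took 12.3% and 8.84% of the counts of the 52X T4A libraries and 17.99% and 11.3% of the 52X WT libraries, or 10.6% ± 2.46 against 14.6% ± 4.73 (SD, n = 2). The difference of −4.07 percentage points was close to the spread between replicates, 3.77 points. Any read counted at several loci would be in these sums several times.

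Of the 86 tested RNY1-related copies, 85 had a log2 fold change below 0 and the median was −0.75. They were split by the side of RNY1 that held their longest exact match, a split made after the values had been seen. For the 51 tested copies that matched the 3′ side, every log2 fold change lay below 0, with a median of −0.91, and 30 had an unadjusted edgeR p below 0.05 against the 6.28% of all features. The groups did not overlap for 43 of these 51, lower in 52X T4A each time, where 21.2% of all features did so. The summed CPM of all 53 copies of this side, tested or not, was 604 and 590 in 52X T4A and 1300 and 1086 in 52X WT. Both T4A libraries thus lay below both wild-type libraries. The 53 include the copy with 7034 counts, at −0.67, or −0.27 without 52X WT replicate 1. Over the copies of this side, the median without 52X WT replicate 1 was −0.84 with 46 of 53 below 0. It was −1.06 without 52X WT replicate 2, −0.79 without 52X T4A replicate 1 and −1.06 without 52X T4A replicate 2. Fewer copies had an unadjusted edgeR p below 0.05 when either T4A library was left out than with all 4 libraries. With library sizes alone the median was −0.71 with 48 of 51 below 0.

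The 35 copies that matched the 5′ side of RNY1 had a median of −0.65, and 34 lay below 0, but their summed CPM was 880 and 568 in 52X T4A against 1503 and 840 in 52X WT. As for RNY4, wild-type replicate 2 lay under T4A replicate 1, and without 52X WT replicate 1 the median was −0.33. The difference between the sides itself was not tested.

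The lowest FDR among the copies belonged to the group of 17 with the 28-base stretch. Y_RNA ENSG00000212448.1 (chr12:95617689-95617786, plus strand, outside protein-coding and lncRNA genes) had 24.1 and 25.8 CPM in 52X T4A and 60.1 and 54.3 in 52X WT, a log2 fold change of −1.20 (SE 0.29, edgeR FDR 0.200). Both T4A libraries thus lay below both wild-type libraries. Over the 17, CPM ran from 16.2 to 24.3 and from 18.1 to 25.8 in the T4A replicates and from 41.9 to 61.2 and from 37.4 to 54.3 in the wild-type replicates, with no overlap between groups for any. Their log2 fold changes lay between −1.22 and −1.06 and their edgeR FDR between 0.200 and 0.234. RNY1 holds the same stretch and had 355 and 234 CPM in 52X T4A against 627 and 364 in 52X WT.

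The call for the 17 depended on the test. DESeq2 called 20 copies lower in 52X T4A and none higher, among 197 with an adjusted p, where its share over all features was 1.87%, and 17 of the 20 were these. The other 3 were the copies described next, which are high in 52X WT replicate 1. The DESeq2 adjusted p of the 17 lay between 0.0125 and 0.0401. With 1 library left out, their call in edgeR changed with the library, and they were not called without either T4A library. Their log2 fold changes lay between −1.26 and −1.06 without 52X WT replicate 1 and between −1.30 and −1.13 without 52X WT replicate 2. They lay between −1.25 and −1.01 without 52X T4A replicate 1 and between −1.28 and −1.07 without 52X T4A replicate 2. As the 17 share a stretch of sequence and counts, they are not 17 separate observations. Without the filter on low counts, edgeR called 6 copies lower, against 0.578% of all features, and with the replicate number as a block it called 4 lower, against 0.878%.

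**Figure D3:**
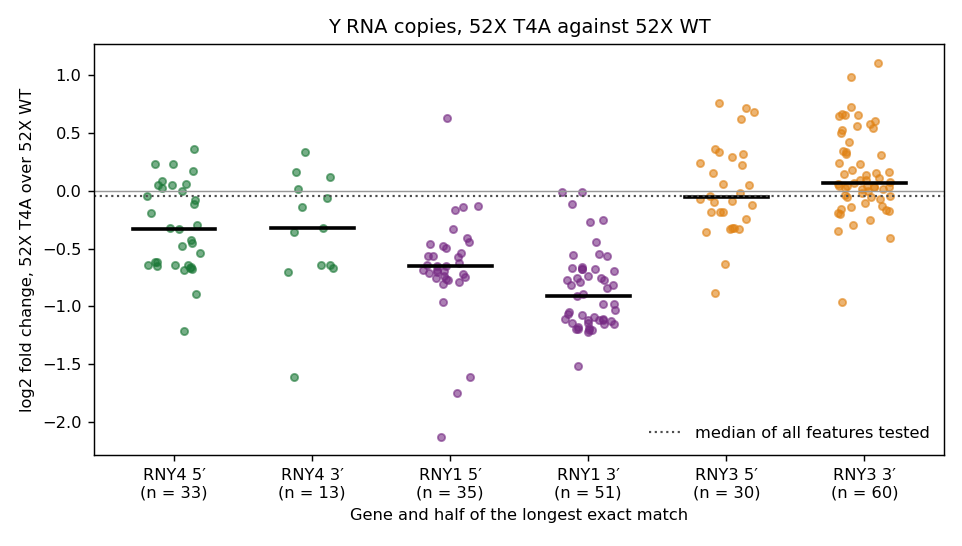
Log2 fold change of 52X T4A over 52X WT for the 222 tested copies, grouped by the functional gene and the side of it that holds the longest exact match; bars are medians, and the dotted line is the median of all 1480 features tested. All 51 copies matching the 3′ side of RNY1 lie below 0, with a median of −0.91, while those matching RNY3 spread around 0.

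**Figure D4:**
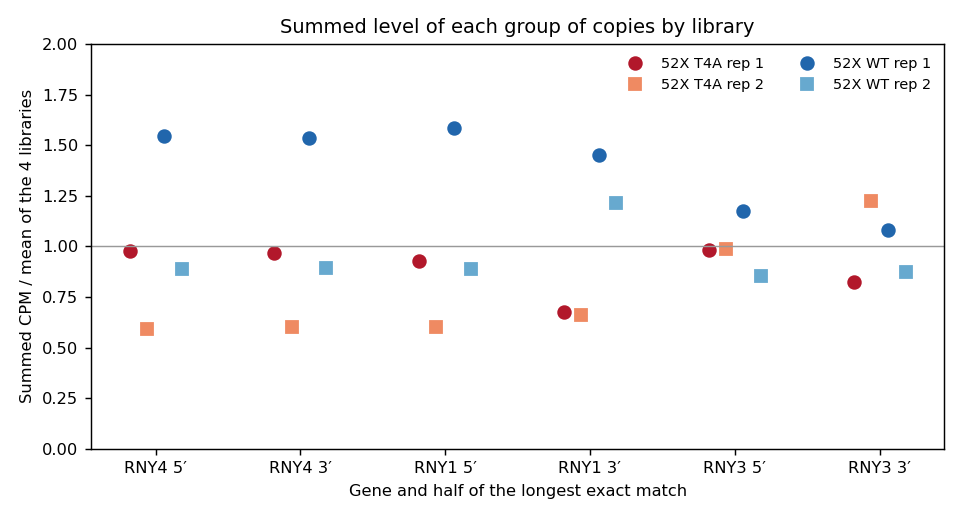
Summed CPM of all copies of each group, tested or not, divided by the mean of the 4 libraries, with 1 point per library. For the 3′ side of RNY1 both 52X T4A points lie below both 52X WT points, whereas for RNY4 and the 5′ side of RNY1 52X WT replicate 2 lies below 52X T4A replicate 1.

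Of the 4 largest lower values among copies without overlap, 3 rested on a single library for most of their size. Y_RNA ENSG00000199884.1 had 103 and 158 counts in 52X T4A and 583 and 194 in 52X WT, a log2 fold change of −2.13 (SE 0.57, edgeR FDR 0.201). Y_RNA ENSG00000199245.1 had 192 and 258 against 759 and 308, at −1.75, and Y_RNA ENSG00000200651.1 had 214 and 291 against 764 and 321, at −1.61. In each, 52X WT replicate 1 was far above the other 3 libraries. Without it the values were −0.95, −0.80 and −0.70. The run printed below, at bases 8 to 29 of RNY1, is the longest that these 3 copies have in common. That all 3 hold it follows from its choice. No other of the 775 listed copies holds it, which the choice of the longest run favours.
RNY1 bases 8 to 29: ccgaaggtagtgagttatctca
Y_RNA ENSG00000201208.1, in an intron of DDX54, had few reads, with 5 and 12 counts against 20 and 16, at −1.61 (SE 0.52, edgeR FDR 0.365) and at −1.33 without 52X WT replicate 1.

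The RNY3-related copies did not share the lower values. Of 90 tested, 53 lay above 0, the median was 0.05, and the groups did not overlap for 19 higher in 52X T4A and 3 lower, where all features gave 18.9% and 21.2%. The summed CPM of all 93 RNY3-related copies, tested or not, was 409 and 506 in 52X T4A and 512 and 393 in 52X WT. The median log2 fold change was −0.17 without 52X T4A replicate 2, −0.07 without 52X WT replicate 2 and 0.27 without 52X T4A replicate 1. Its sign was thus set by single libraries. The most abundant, Y_RNA ENSG00000200291.1 and Y_RNA ENSG00000200090.1, totalled 4547 and 4469 and alone of the listed copies hold the first 32 bases of RNY3.

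All 4 of the largest higher values without overlap were RNY3-related and had few counts. Y_RNA ENSG00000238443.1 had 30 and 81 counts in 52X T4A and 14 and 21 in 52X WT, a log2 fold change of 1.11 (SE 0.41, edgeR FDR 0.419). Y_RNA ENSG00000252919.1, in an intron of RPS29, had 34 and 88 against 17 and 25, at 0.99, and Y_RNA ENSG00000202495.1 had 37 and 79 against 27 and 21, at 0.72, or 0.39 without 52X WT replicate 2. The longest run that these 3 have in common is printed below, so that all 3 hold it follows from its choice. No other listed copy holds it, which the choice of the longest run favours. It ends differently from RNY3, and capitals mark the bases that differ.
RNY3 bases 72 to 102: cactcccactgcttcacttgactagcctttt
Stretch of the 3 copies: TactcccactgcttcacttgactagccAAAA
The fourth, Y_RNA ENSG00000206967.1, over an exon of ATM on the opposite strand, had 41 and 95 counts against 25 and 32, at 0.72 (SE 0.37, edgeR FDR 0.467). Copies that hold RNY3 bases 73 to 100 exactly, 20 in all, had a median of −0.02, and the groups overlapped for each of them.

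The numbered copies outside the RNY4P series were few and low. RNY3P2, in an intron of FNDC3A, had 65 and 219 counts in 52X T4A and 68 and 90 in 52X WT, a log2 fold change of 0.24 (SE 0.37, edgeR FDR 0.844), which was −0.18 without 52X T4A replicate 2. RNY1P7 had 25 and 81 against 49 and 47, at −0.46 (SE 0.40, edgeR FDR 0.661). The 21 numbered copies had a median of −0.32, as had the 201 tested generic copies. The median of the numbered copies ranged from −0.66 without 52X WT replicate 2 to −0.14 without 52X T4A replicate 1. It was −0.03 with 1 feature kept among abundant ones with counts within 2% in every library, where the generic copies were at −0.25. That setting still tested 18 numbered and 200 generic copies.

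By identifier in the annotation, 77 copies lay in an intron on the strand opposite to the gene, 72 in an intron on the same strand, 10 over an exon on the same strand, 5 over an exon on the opposite strand and 63 in no protein-coding or lncRNA gene. The median log2 fold changes were −0.26, −0.33, −0.47, −0.36 and −0.29 in that order. With 1 library left out they ranged from −0.76 to −0.05, and both extremes were of the 5 copies over an exon on the opposite strand, reached by leaving out 1 or the other 52X WT library. These groups were not tested against each other.

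**Figure D5:**
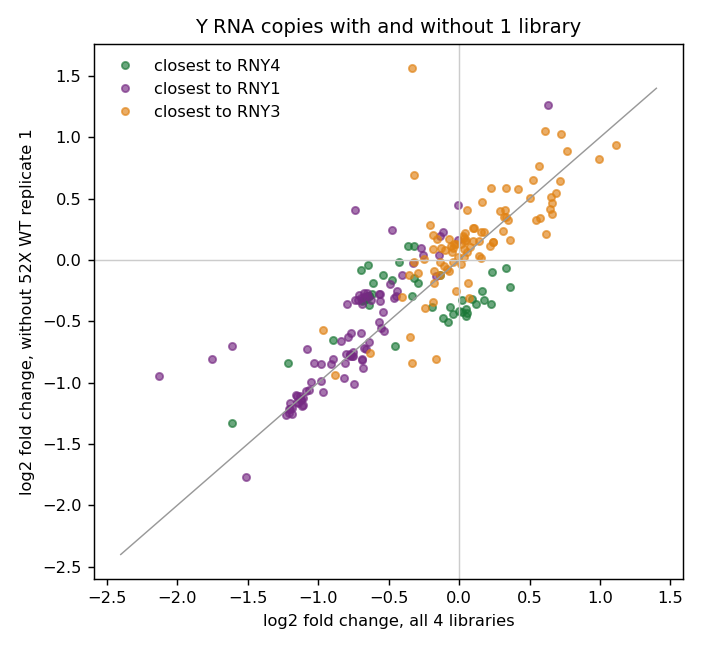
Log2 fold change of 52X T4A over 52X WT for the 222 tested copies with all 4 libraries (x axis) and without 52X WT replicate 1 (y axis), coloured by the closest functional gene; the line marks equal values. The 17 copies with the 28-base stretch, between −1.22 and −1.06, stay near the line, at −1.26 to −1.06, and the 3 RNY1-related copies from −2.13 to −1.61 move to between −0.95 and −0.70.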

How the data were processed

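For each of the 4 libraries the authors deposited raw read counts per feature, without normalization, over the same 7062 small RNA features. The submitters' processing notes name cutadapt 4.6, Bowtie2 2.3.5.1, featureCounts 1.5.0 and hg38; how reads that match several loci were counted is not given in the sources used here, and it decides how often a fragment of a Y RNA enters the sums. Coordinates are those of the deposited tables. Symbols, host genes and sequences were taken from GENCODE version 44 on GRCh37 by Ensembl identifier, which named 5579 features and gave all 227 copies a sequence; for 5 copies its length differed from the table. The copies, gene lists and groups were chosen with earlier results of these data known.

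Copies were aligned to RNY1, RNY3, RNY4 and RNY5 with Biopython 1.88 (match 2, mismatch −1, gap opening −3, extension −1). Counts were fitted with edgeR 4.0.16 in R 4.3.3 after filterByExpr at a minimum count of 10 and TMM scaling, with p-values adjusted over all 1480 features by Benjamini-Hochberg. The standard error is the log2 fold change over the square root of F. The fit was tested on simulated data. DESeq2 1.42.0, other scalings and filters, a replicate block and leaving out each library were alternatives. Copies named with values were the 10 most abundant, the most abundant of each numbered series, and the 4 largest differences each way without overlap between groups at a mean of at least 10 counts; RNY4P17, RNY4P29, RNY4P30, Y_RNA ENSG00000200121.2, ENSG00000200291.1 and ENSG00000200090.1 and the 4 copies with printed 3′ ends were named after their values had been seen.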

Additional observations from a re-analysis of the deposited data

How the results depend on the processing

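The number of called copies, 0 with edgeR, was also 0 with RLE or upper quartile factors, TMM factors without Y RNA, a mean of at least 10 counts, a robust fit, 1 feature per set of shared reads and no fold threshold. At an unadjusted edgeR p below 0.05 there were 39. It was 1 with library size alone, 6 without a filter on low counts, 4 with the replicate block and 20 with DESeq2, and ranged from 0 to 46 with 1 library left out; 45 of the 46, without 52X WT replicate 2, were lower in 52X T4A. With 1 library left out, the lone library of its group is assumed to vary like the other group. The cause of these changes was not tested. Labels do not say that equal replicate numbers pair libraries: the deviations of same-numbered libraries correlated at 0.0946 over all features tested and at 0.210 over the tested copies, and with only 2 numbers the block result is a count and no more.

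The median log2 fold change of the copies was −0.11 with library size alone, where the median of all features was 0.14 rather than −0.05, and −0.13 with upper quartile factors, where that of all features was 0.13. Under the other alternatives it lay between −0.52 (without 52X WT replicate 2) and −0.24. For the copies matching the 3′ side of RNY1 it lay between −1.06 and −0.71 throughout. Of 180 comparisons of 20 named copies under alternatives with all libraries, 166 were unchanged in direction and call and 14 gained a call; of 80 with 1 library left out, 66 were unchanged, 13 gained a call and RNY3P2 reversed, with values from −0.18 to 0.54. The number of sets of copies whose counts could not be told apart was 18 at a minimum of 1000 counts and 5 within 2% alone. Tiers, closest genes and the share of counts kept their values within the limits set for them. Depth limits the 57 copies with under 100 counts, whose values rest on few reads per library.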
